A study of Mus musculus with 9 samples.

Results

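Genes that were high in mouse olfactory sensory neurons choosing the odorant receptor gene Olfr1507 were followed through every library: Cidea, Vstm2a, Afap1l2, Unc93a, Fndc1, Cemip, Eml1, Septin3, Supt16 and Macroh2a1. These 10 of the 55291 genes in the tables were selected on their measured values: their counts and TPM (a transcript level corrected for length and depth) were higher in the Olfr1507 libraries than in the libraries of 2 other receptor choices. Their values in those comparisons are therefore given as a description, without a test. Polyadenylated RNA had been sequenced from mature olfactory sensory neurons of the main olfactory epithelium, dissociated with papain and sorted for bright reporter fluorescence and low DAPI, a dye that enters dead cells. One line of mice carried the allele Olfr1507-IRES-GFP, another Olfr73-IRES-GFP and the last Olfr160-IRES-mCherry, in which an internal ribosome entry site joins a fluorescent protein to the receptor transcript. Each group goes by its receptor and has 3 libraries, 9 in all, although the description of the series speaks of duplicates. No age, sex, strain or allele beyond the reporter is given in the labels, and a group is one reporter allele, so the receptor choice, the mouse line and, for Olfr160, the fluorescent protein cannot be told apart. Nothing says that the 3 libraries came from separate animals, and p-values measure the spread between these libraries, which may be technical.

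An olfactory sensory neuron transcribes one allele of one odorant receptor gene, and its axon runs to the glomerulus of that receptor in the olfactory bulb. Neurons of different receptors lie in different zones of the epithelium and differ in the guidance, adhesion and signalling genes they transcribe. The members take part in unlike processes: lipid droplet growth (Cidea), proteins of the cell surface and matrix (Vstm2a, Fndc1, Cemip, Unc93a), kinase signalling (Afap1l2), the cytoskeleton (Eml1, Septin3) and chromatin (Supt16, Macroh2a1).

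The bases before the start sites are shown for 6 members, to set their start regions side by side. They are the members with a matched entry whose mean CPM in Olfr73 was at most 2.43% of that in Olfr1507, and Eml1 for its motif match. The sequences come from RefSeq entries of GRCm38.p6, run 5′ to 3′ on the strand of the gene and stop before the first transcript base of RefSeq or GENCODE, whichever comes first. Capitals mark matches to TATAAA (the TATA box, here in Cemip and, on the other strand, in Fndc1) and to TCCCNNGGGA (the Ebf motif, in Eml1).
Vstm2a, chr11:16257492-16257723, plus strand: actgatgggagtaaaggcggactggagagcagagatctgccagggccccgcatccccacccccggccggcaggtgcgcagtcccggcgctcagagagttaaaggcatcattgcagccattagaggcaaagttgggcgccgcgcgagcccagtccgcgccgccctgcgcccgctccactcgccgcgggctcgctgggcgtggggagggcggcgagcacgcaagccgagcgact
Afap1l2, chr19:57008576-57008825, minus strand: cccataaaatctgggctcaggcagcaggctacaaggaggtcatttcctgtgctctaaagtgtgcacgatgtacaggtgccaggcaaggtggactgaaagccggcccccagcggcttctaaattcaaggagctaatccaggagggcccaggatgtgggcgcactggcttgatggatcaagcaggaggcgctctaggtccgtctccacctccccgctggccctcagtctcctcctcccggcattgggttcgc
Unc93a, chr17:13131811-13132041, minus strand: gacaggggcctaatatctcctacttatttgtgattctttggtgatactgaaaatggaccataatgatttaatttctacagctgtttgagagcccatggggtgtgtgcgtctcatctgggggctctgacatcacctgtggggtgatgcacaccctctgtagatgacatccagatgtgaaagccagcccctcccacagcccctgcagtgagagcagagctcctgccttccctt
Fndc1, chr17:7827303-7827552, minus strand: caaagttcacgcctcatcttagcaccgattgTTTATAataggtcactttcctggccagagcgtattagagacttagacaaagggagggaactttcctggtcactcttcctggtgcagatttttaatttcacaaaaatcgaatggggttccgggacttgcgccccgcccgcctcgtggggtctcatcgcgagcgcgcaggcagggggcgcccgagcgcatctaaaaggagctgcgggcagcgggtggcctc
Cemip, chr7:84086506-84086755, minus strand: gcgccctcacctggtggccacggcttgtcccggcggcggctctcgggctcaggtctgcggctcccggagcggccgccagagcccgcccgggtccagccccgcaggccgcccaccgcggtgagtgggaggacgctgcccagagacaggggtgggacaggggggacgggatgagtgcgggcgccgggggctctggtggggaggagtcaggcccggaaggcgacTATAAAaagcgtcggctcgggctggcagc
Eml1, chr12:108370903-108370956, plus strand: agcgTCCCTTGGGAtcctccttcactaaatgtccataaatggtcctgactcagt

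These start regions were of unlike make-up. In the full 250 bases before the RefSeq start, CG dinucleotides numbered 28 in Vstm2a, 28 in Supt16, 29 in Macroh2a1, 26 in Cemip and 18 in Fndc1, but 9 in Afap1l2, 4 in Eml1 and 1 in Unc93a. The median was 22 over the 8 members with an entry and 6 over all 32851 entries. In Macroh2a1 the RefSeq start lay 811 bases inside the GENCODE gene, so its window lay wholly within the annotated span. In Eml1 and Supt16 that start lay 196 and 177 bases inside, and most of their windows lay within the span too. TATAAA, searched on both strands, stood in 2 of the 8, against 12.4% of all entries, and began 29 bases before the start in Cemip. The Ebf motif TCCCNNGGGA stood in 1 of 8 (0.779% of all entries), the Lhx core TAATTA in 0 of 8 (4.84%) and the cyclic AMP response element TGACGTCA in 0 of 8 (1.55%). The short E-box CANNTG stood in 5 of 8 (66.2%) and the NFI core TTGGC in 1 of 8 (41.5%). A match describes letters only, and no motif searched was present in all 8.

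Libraries held 17212807 to 36230606 counts. The sorted populations differed in make-up. The receptor of the reporter allele made up 85.1% to 94.7% in Olfr1507, 22.8% to 32.8% in Olfr73 and 2.08% to 10.1% in Olfr160 of the counts summed over Olfr genes. The 10 markers of mature olfactory sensory neurons summed to 8.24% to 8.44% of counts in Olfr1507, 5.32% to 5.44% in Olfr73 and 2.99% to 4.70% in Olfr160, and 10 markers of sustentacular and gland cells to 0.0275% to 0.0616%, 0.369% to 0.691% and 2.31% to 5.09%. Summed markers of immature neurons (0.0564% to 0.0590% in Olfr1507, at most 0.121% in Olfr73, 0.182% to 0.199% in Olfr160), immune cells (at most 0.000504%, 0.0114%, 0.0864%), basal cells (at most 0.000505%, 0.00891%, 0.0514%) and glia, fibroblasts and vessels (at most 0.00209%, 0.0338%, 0.108%) ran in the same order. The 7 respiratory epithelium markers summed to 0.0294% to 0.0413%, 0.137% to 0.266% and 0.518% to 1.42%, but singly went both ways: 3 were higher and 3 lower in Olfr1507 than in Olfr73, and 4 higher and 3 lower than in Olfr160. Microvillar and brush cell markers were at most 0.000855%, 0.00343% and 0.0162%. The part of these differences in the results below was not tested, and in such bulk samples fewer cells of a type and less RNA per cell cannot be told apart. The Olfr1507 transcript itself stood at 57.9, 36.4 and 12.3 normalised CPM (counts scaled to a common library size by TMM) in Olfr73, at 3212, 2685 and 3084 in Olfr1507 and at 60.9, 85.8 and 70.0 in Olfr160. Its mean in Olfr73 was 1.19% of that in Olfr1507, and in Olfr160 2.41%.

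All 10 members had no overlap between the Olfr1507 libraries and the other 6, which the choice of members fixes. By the adjusted p of 0.05 used throughout, 14.5% of the 16399 tested genes were higher in Olfr1507 than in Olfr73, 20.7% were higher than in Olfr160 and 11.3% were higher than in both. Ranked by log2 fold change among the tested genes, the members lay at places 1 to 515 over Olfr73 and 13 to 530 over Olfr160. Cidea, Vstm2a, Afap1l2, Unc93a, Fndc1 and Cemip were at or under 18.0% of their Olfr1507 mean in both other groups, and at or under 3.18% in Olfr73. Eml1, Septin3, Supt16 and Macroh2a1 kept 12.5% to 35.8%. The level of 10 members in Olfr160, and of 7 in Olfr73, was a larger part of the Olfr1507 level than that of the Olfr1507 receptor, and for Afap1l2, Unc93a and Cemip in Olfr73 it was a smaller one. Between the 3 Olfr1507 libraries the coefficient of variation was 5.04% in the median member and 10% in the median of 8848 genes with at least 5 CPM there. The choice of members used these libraries, and the 8848 genes were not matched to the members in level. The smaller spread is therefore a description and not a trait of the members.

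**Figure D1:**
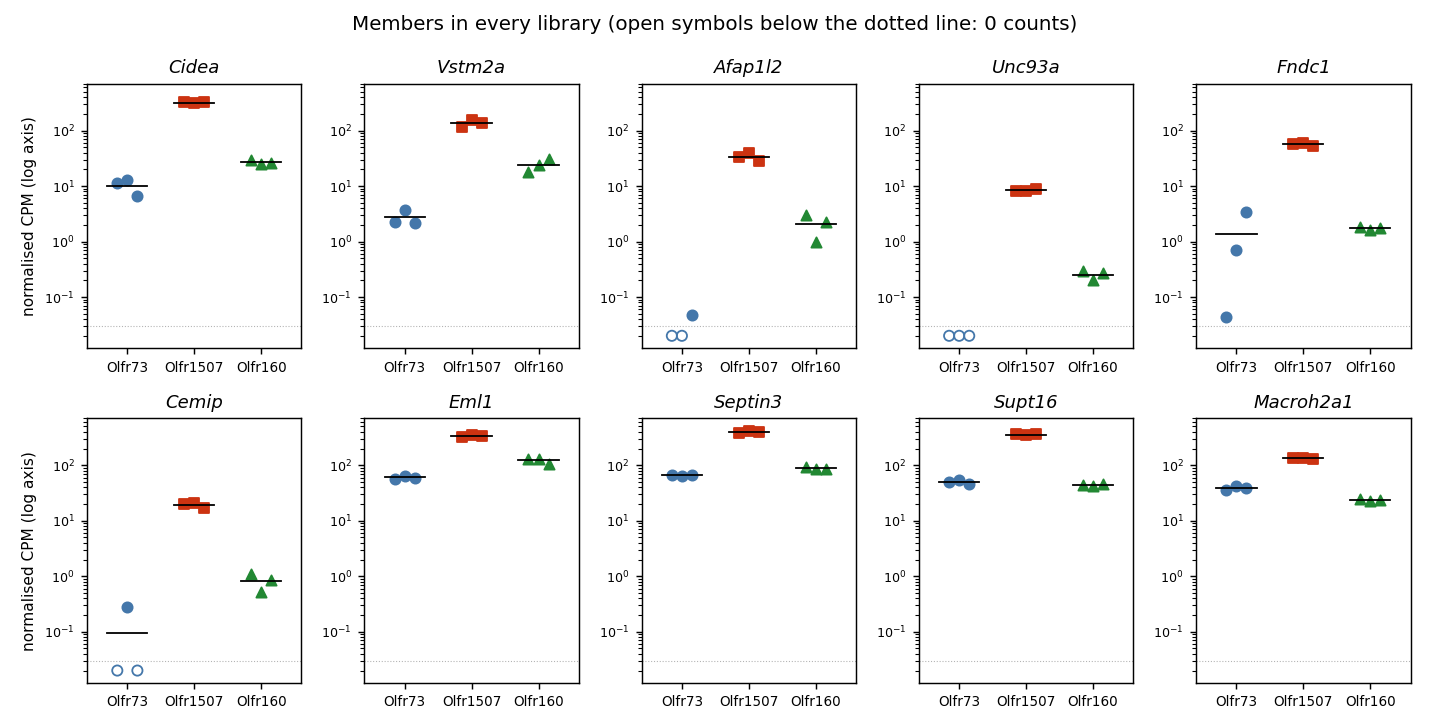
Normalised CPM on a log axis for the 10 members, one panel per gene, with one symbol per library in the Olfr73, Olfr1507 and Olfr160 groups; black bars are group means and open symbols under the dotted line are libraries with 0 counts. The Olfr1507 squares lie above all other symbols in each panel, and Afap1l2, Unc93a and Cemip have libraries at 0 in Olfr73.

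Cidea, on chromosome 18, encodes a protein that joins small lipid droplets into larger ones and is best known from brown fat. It stood at 11.4, 12.7 and 6.48 normalised CPM in the Olfr73 libraries, at 320.3, 307 and 332 in the Olfr1507 libraries and at 29.1, 25.03 and 25.6 in the Olfr160 libraries. The lowest Olfr1507 library was 24.2-fold above the highest Olfr73 library and 10.6-fold above the highest Olfr160 library. Per length it was the most abundant member in Olfr1507, at 743.5 ± 35.1 TPM (SD, n = 3), and ranked between place 150 and 167 of all genes in the 3 libraries. Its relatives and a set of fat cell genes were not high with it. Cideb, Cidec and Plin1 had at most 2.09, 0 and 0 counts in any library, and 11 of 12 fat cell markers, among them Fabp4, Ucp1 and Pparg, had 0 counts in all Olfr1507 libraries. Of the same 12, 7 had 0 counts in all Olfr73 libraries and 6 in all Olfr160 libraries, and 0 were tested. Of 16 tested lipid droplet genes, 2 were higher and 4 lower in Olfr1507 than in Olfr73, and 1 was higher and 7 were lower than in Olfr160, while 19.9% and 27.7% of all tested genes were lower.

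The droplet coat gene Plin2 was lower in Olfr1507, at 0.541 ± 0.240 CPM (SD, n = 3), than in Olfr73, at 6.83 ± 2.40 (edgeR adjusted p = 0.000303), and than in Olfr160, at 38.4 ± 10.6 (edgeR adjusted p = 1.77e-05). Plin3, another coat gene, differed by -2.25 and -4.58 on the log2 scale and the monoglyceride lipase Mgll by -3.23 and -5.43, each lower in both comparisons. The sustentacular and gland markers given above were lower in Olfr1507 in the same direction, 9 of 10 against Olfr73 and 10 of 10 against Olfr160.

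Vstm2a (chr11:16257724-16427310, plus strand) encodes a secreted protein with an immunoglobulin V-set domain. Its Olfr73 libraries held 2.29, 3.75 and 2.14 normalised CPM, its Olfr1507 libraries 114, 153 and 135 and its Olfr160 libraries 17.8, 24.2 and 30.5. Olfr160 lay between the others without overlap, and its mean was 18.0% of that in Olfr1507 against 2.04% in Olfr73. The 4 listed relatives Vstm2b, Vstm2l, Vstm4 and Vstm5 had at most 5 counts in any library and were not tested.

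Fndc1 (chr17:7738569-7827302, minus strand) encodes a protein of the matrix with fibronectin type III domains. It held 0.0440, 0.702 and 3.36 normalised CPM in Olfr73, from 1, 15 and 72 counts, then 56.9, 59.4 and 52.5 in Olfr1507 and 1.83, 1.62 and 1.78 in Olfr160. The Olfr73 libraries spanned those of Olfr160, and library 3 alone gave most of the Olfr73 mean. Of 7 tested fibronectin and Fndc genes, 1 (14.3%) was higher and 1 (14.3%) lower than in Olfr73, near the 14.5% and 19.9% of all tested genes. Against Olfr160, 0 were higher and 1 (14.3%) lower, where 20.7% and 27.7% of all were. That lower gene was Fndc4 in both, with 0.679 ± 0.322 CPM in Olfr73 and 0 counts in all Olfr1507 libraries (SD, n = 3).

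Cemip (chr7:83932857-84086502, minus strand) encodes a protein that binds hyaluronan, the large sugar polymer of the matrix, and is needed for its breakdown. It held 0, 6 and 0 counts in the Olfr73 libraries, 372, 633 and 300 in the Olfr1507 libraries and 23, 13 and 19 in the Olfr160 libraries. In normalised CPM the Olfr1507 libraries held 20.1, 20.9 and 16.7, and the lowest of them was 15.1-fold above the highest Olfr160 library. Its relative Cemip2 (Tmem2), a cell-surface hyaluronidase, was not higher: it stood at 13.4 ± 1.20 CPM in Olfr1507, at 18.9 ± 2.39 in Olfr73 (edgeR adjusted p = 0.103) and at 31.6 ± 9.39 in Olfr160 (edgeR adjusted p = 0.00173; SD, n = 3).

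Of the 9 tested hyaluronan genes, 0 were higher and 5 (55.6%) lower in Olfr1507 than in Olfr73, where 14.5% and 19.9% of all tested genes were. Against Olfr160, 1 (11.1%) was higher and 7 (77.8%) were lower, where 20.7% and 27.7% of all were. Hyal2, a hyaluronidase, differed by -1.25 (edgeR adjusted p = 0.0108) and -2.04 (edgeR adjusted p = 0.000611) on the log2 scale. The receptors Hmmr and Stab1 were lower in both, and each had counts in 1 of the 3 Olfr1507 libraries, with 0.0660 and 0.0330 CPM there. The synthases Has1, Has2 and Has3 reached at most 3, 5 and 19 counts and were not tested.

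Unc93a (chr17:13108617-13131810, minus strand) encodes a membrane protein of the Unc93 family. It held 0 counts in the 3 Olfr73 libraries, 149, 245 and 158 in the Olfr1507 libraries and 6, 5 and 6 in the Olfr160 libraries. With 3 counts over the group in place of 0, Olfr1507 was at least 181-fold higher than Olfr73. The near copy Unc93a2, which shares 49.6% of the 50-base words of the Unc93a transcripts, had 0 counts in Olfr73 and 28.2, 35.9 and 55.7 in Olfr1507, so the split of counts between these copies is uncertain. Together they held 10.3 ± 1.47 normalised CPM in Olfr1507 and 0.411 ± 0.125 in Olfr160 (SD, n = 3). The more distant Unc93b1, a carrier of nucleic acid-sensing receptors, was higher in Olfr1507 than in Olfr73 by 0.85 (edgeR adjusted p = 0.0244), but by -0.086 with libraries scaled to the neuron markers, and lower than in Olfr160 by -1.70 (edgeR adjusted p = 0.000541).

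Afap1l2 (chr19:56912361-57008228, minus strand), also called XB130, encodes an adaptor that links Src family kinases to phosphoinositide 3-kinase and Akt. It held 0, 0 and 1 count in the Olfr73 libraries, 609, 1213 and 497 in the Olfr1507 libraries and 63, 24 and 50 in the Olfr160 libraries. The ratio of Olfr1507 to Olfr73 rested on that single count and was 2280, with a 95% counting interval of 409 to 89900. Its paralogue Afap1 was at 207 ± 20.6 CPM in Olfr73 and 193 ± 18.8 in Olfr1507 (SD, n = 3) and did not pass the test there (edgeR adjusted p = 0.69). Against Olfr160 Afap1 was higher by 0.60 (edgeR adjusted p = 0.0223), but by -0.96 with libraries scaled to the neuron markers.

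Of the 13 tested adaptors, kinases and lipid kinase subunits around Afap1l2, 2 (15.4%) were higher and 1 (7.69%) lower in Olfr1507 than in Olfr73. Among all tested genes 14.5% and 19.9% were. Against Olfr160, 3 (23.1%) were higher and 3 (23.1%) lower, near the 20.7% and 27.7% of all. The 2 that were higher in both were the kinase Akt2 and the regulatory subunit Pik3r2. Akt2 held 73.7, 70.9 and 52.3 normalised CPM in Olfr73, 312, 330.4 and 398 in Olfr1507 and 102, 97.0 and 118 in Olfr160. Its Olfr1507 libraries were above all others, by 2.40 over Olfr73 (edgeR adjusted p = 2.65e-05) and 1.72 over Olfr160 (edgeR adjusted p = 4.91e-05) on the log2 scale. Pik3r2 was higher by 1.61 (edgeR adjusted p = 0.000596) and 1.69 (edgeR adjusted p = 0.000226). With libraries scaled to the neuron markers, the differences of Akt2 and Pik3r2 from Olfr160 were 0.11 and 0.13 and did not pass.

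Eml1 (chr12:108370957-108539617, plus strand) encodes a microtubule-binding protein of the EMAP-like family, known for its role in dividing neural progenitors. It stood at 57.4, 64.5 and 58.9 normalised CPM in Olfr73, at 329, 353 and 341 in Olfr1507 and at 132, 128 and 106 in Olfr160. The groups did not overlap, and Olfr160 kept 35.8% of the Olfr1507 mean, the highest share among the members. With libraries scaled to the neuron markers Eml1 was the one member to change sign, at -0.17 on the log2 scale over Olfr160.

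The family did not move as one. Eml2, the most abundant relative, stood at 868 ± 83.5 TPM in Olfr1507, 509 ± 43.3 in Olfr73 and 358.5 ± 44.8 in Olfr160 (SD, n = 3). It was higher in Olfr1507 in both comparisons, by 0.90 (edgeR adjusted p = 0.000589) and 1.46 (edgeR adjusted p = 2.69e-05), but by -0.042 and -0.13 with libraries scaled to the neuron markers. The TPM ratio of Eml1 to Eml2 was 0.0663 ± 0.00452 in Olfr73, 0.181 ± 0.0202 in Olfr1507 and 0.180 ± 0.0389 in Olfr160 (SD, n = 3), with overlapping ranges in the last 2. Eml5 was lower in both, by -1.54 (edgeR adjusted p = 0.000842) and -0.83 (edgeR adjusted p = 0.00984). Of the 5 tested relatives, 1 (20.0%) was higher and 2 (40.0%) lower than in Olfr73, where 14.5% and 19.9% of all tested genes were. Against Olfr160, 1 (20.0%) was higher and 1 (20.0%) lower, where 20.7% and 27.7% of all were.

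Septin3 (chr15:82274893-82294574, plus strand), listed in the annotation as Sept3, encodes a neuronal septin, one of the GTP-binding proteins that form filaments under the membrane. It stood at 67.1, 65.1 and 66.7 normalised CPM in Olfr73, at 377, 415 and 402 in Olfr1507 and at 93.5, 84.9 and 86.6 in Olfr160. The groups did not overlap, and the lowest Olfr1507 library was 4.04-fold above the highest Olfr160 library. Septin5, another septin of nerve terminals, was higher in both, by 1.72 over Olfr73 (edgeR adjusted p = 5.73e-05) and 2.08 over Olfr160 (edgeR adjusted p = 1.35e-05). Septin11 was lower in both, by -1.64 (edgeR adjusted p = 0.000356) and -2.03 (edgeR adjusted p = 5.57e-05). Of 10 tested septins, 1 was higher and 3 lower than in Olfr73, where 14.5% and 19.9% of all tested genes were. Against Olfr160, 3 were higher and 5 lower, where 20.7% and 27.7% of all were. Set against Septin7, the core subunit, which was chosen here after its values were seen, the TPM ratio of Septin3 was 0.157 ± 0.00878 in Olfr73, 0.909 ± 0.0342 in Olfr1507 and 0.221 ± 0.0179 in Olfr160 (SD, n = 3), which restates the selection of Septin3. Set against Septin5, which was itself higher in Olfr1507, the ratio was 0.453 ± 0.0591, 0.904 ± 0.161 and 0.905 ± 0.171, with overlapping ranges in Olfr1507 and Olfr160.

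Supt16 (chr14:52160414-52197416, minus strand) encodes the larger subunit of FACT, the complex that loosens nucleosomes ahead of RNA polymerase and rebuilds them behind it. It stood at 49.4, 54.1 and 45.5 normalised CPM in Olfr73, at 362, 345 and 362 in Olfr1507 and at 44.0, 42.6 and 46.7 in Olfr160. The lowest Olfr1507 library was 6.38-fold above the highest Olfr73 library, while the other 2 groups overlapped. Of its 50-base words, 19.3% are shared with Rpgrip1, which overlaps it and reached at most 1.55 CPM in any library. The small subunit Ssrp1 did not follow. It stood at 171, 177 and 139 CPM in Olfr73, at 203, 203 and 194 in Olfr1507 and at 172, 188 and 193 in Olfr160, with edgeR adjusted p = 0.0621 and 0.402. The TPM ratio of Supt16 to Ssrp1 was 0.135, 0.143 and 0.161 in the Olfr73 libraries, 0.830, 0.803 and 0.910 in the Olfr1507 libraries and 0.116, 0.106 and 0.108 in the Olfr160 libraries. Since Supt16 was selected for its height in Olfr1507 and Ssrp1 passed in neither comparison, this ratio restates the selection and is no separate result.

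**Figure D2:**
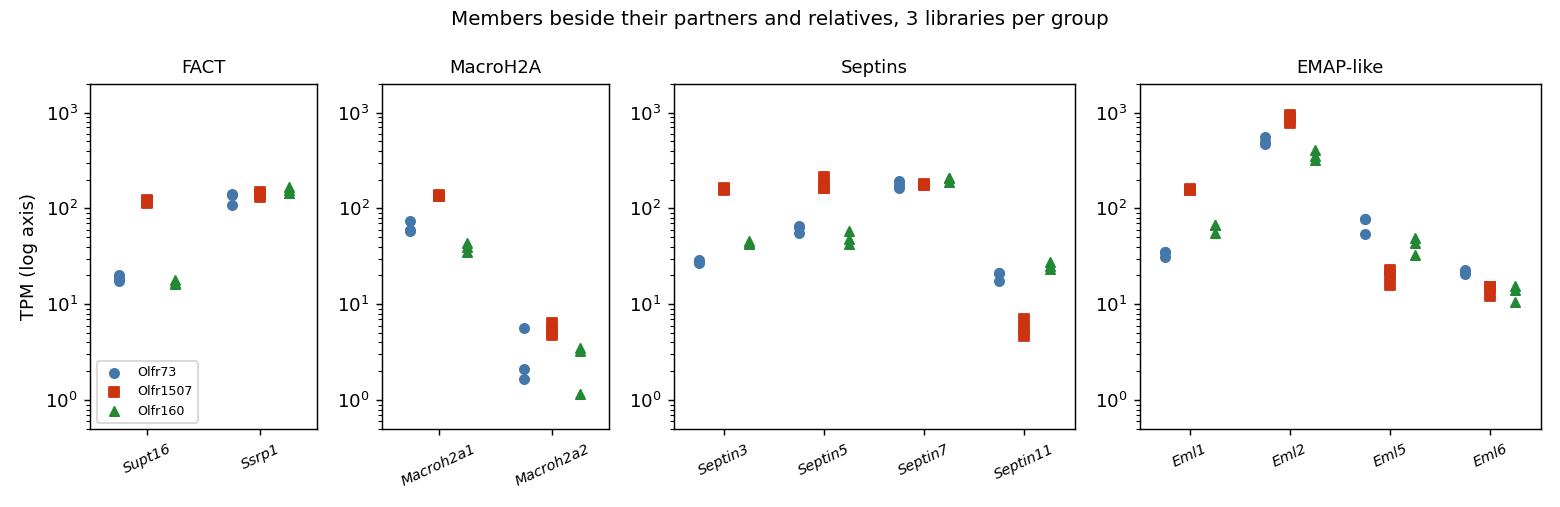
TPM on a log axis for Supt16, Macroh2a1, Septin3 and Eml1 beside partners and relatives, with one symbol per library and 3 libraries per group. Supt16, selected as high in Olfr1507, lies nearest to Ssrp1 there, while Ssrp1 and Septin7 lie at like levels in all groups.

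Among the 21 tested histone chaperones and elongation factors listed with Supt16, 7 (33.3%) were higher and 2 (9.52%) lower in Olfr1507 than in Olfr73, where 14.5% and 19.9% of all tested genes were. Against Olfr160, 5 (23.8%) were higher, near the 20.7% of all genes, and 2 (9.52%) lower, where 27.7% of all were. Chaf1a, the large subunit of the chromatin assembly factor, stood at 77.0 ± 8.44 CPM in Olfr1507, at 43.4 ± 7.30 in Olfr73 (edgeR adjusted p = 0.00272) and at 24.4 ± 1.09 in Olfr160 (edgeR adjusted p = 4.1e-05; SD, n = 3). With libraries scaled to the neuron markers Chaf1a differed by -0.11 and 0.02. Nap1l1, a carrier of histones H2A and H2B, was higher by 0.52 (edgeR adjusted p = 0.00287) and 0.78 (edgeR adjusted p = 0.000183), but by -0.43 and -0.83 under that scaling.

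Macroh2a1 (chr13:56073619-56136361, minus strand), listed in the annotation as H2afy, encodes a histone H2A variant with a large macro domain that is found in silent chromatin. It stood at 36.2, 42.0 and 38.8 normalised CPM in Olfr73, at 134, 136 and 129 in Olfr1507 and at 24.5, 22.5 and 23.3 in Olfr160. Its groups did not overlap, and here Olfr73 lay above Olfr160. Its paralogue Macroh2a2 stood at 3.44 ± 2.48 CPM in Olfr73, 6.51 ± 1.13 in Olfr1507 and 2.75 ± 1.34 in Olfr160 (SD, n = 3) and passed in neither comparison (edgeR adjusted p = 0.229 and 0.0982). Of 8 tested histone variant genes, 1 (12.5%) was higher and 0 lower than in Olfr73, where 14.5% and 19.9% of all tested genes were. Against Olfr160, 0 were higher and 3 (37.5%) lower, where 20.7% and 27.7% of all were.

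The deposited counts and TPM of Macroh2a1 also gave different sizes for the same difference. In TPM it stood at 58.1, 73.3 and 59.3 in Olfr73, at 133, 137 and 134 in Olfr1507 and at 43.1, 35.5 and 39.9 in Olfr160. A count divided by TPM gives, up to one factor per library, the effective length of the transcripts that RSEM took to be present, which lies below the full length of short transcripts. Set to bases with 177 long genes of 1 transcript each, this length was 1114, 1005 and 1128 in the Olfr73 libraries, 1616, 1551 and 1492 in the Olfr1507 libraries and 1021, 1138 and 1064 in the Olfr160 libraries. The scale used the full length of those 177 genes, so a value can pass the longest transcript. In Fndc1 it was 6102 in Olfr73 library 3 against 5845 bases. The annotation holds 8 transcripts of Macroh2a1 of 547 to 4018 bases. The Olfr1507 mean was 1.43 times that of Olfr73 and 1.45 times that of Olfr160. Of 6123 genes with several transcripts, 14 (0.229%) had ratios at least as large in both, and the median ratios were 1.00 and 1.01. The bar was the smaller ratio of Macroh2a1 itself, the member with the largest ratios, so this share describes its place only. No test was made of this measure, which comes from RSEM's assignment of reads. In the other members that could be compared the ratios lay between 0.932 and 1.10. Of the 50-base words of Macroh2a1, 5.94% are shared with the antisense gene Gm47071, which was lower in Olfr1507 in both comparisons, by -2.67 and -3.13, and without stated strand use its reads cannot be told apart from those of Macroh2a1 there.

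**Figure D3:**
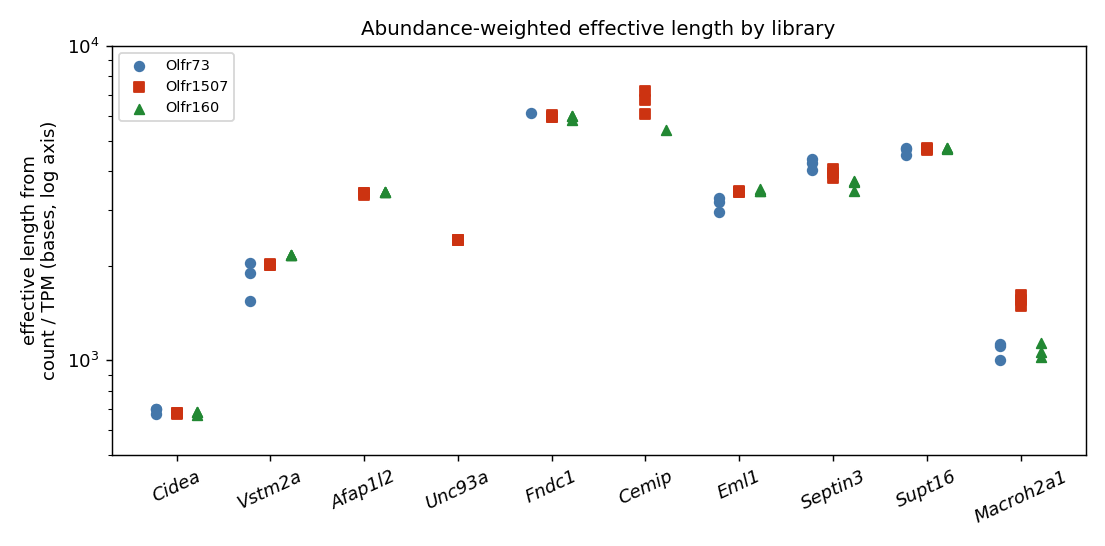
Effective length in bases on a log axis, computed from deposited count over TPM, for each member and library with at least 20 counts; circles are Olfr73, squares Olfr1507 and triangles Olfr160. Macroh2a1 is longer in the 3 Olfr1507 libraries, between 1492 and 1616, than in the other 6, between 1005 and 1138.

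The choice of members set Olfr1507 against Olfr73 and Olfr160 and did not compare these groups with each other. That difference was tested, but the choice had used the values of both as the low groups. The fit also takes part of its spread from the Olfr1507 libraries. The counts below are therefore not independent of the choice. Of the 10 members, 8 passed, 7 lower and 1 higher in Olfr73, while 17.9% of the 16399 tested genes passed, 10.5% lower and 7.45% higher. Unc93a is among the 8, but it passed the low-count filter only through its Olfr1507 libraries, where it was chosen to be high, so its p is not given; of the other 9, 7 passed. Vstm2a showed the largest of the well-counted differences, at -3.15 ± 0.27 on the log2 scale (SE, n = 3 per group, edgeR adjusted p = 0.00113). Cidea differed by -1.38 ± 0.21 (edgeR adjusted p = 0.00445) and Eml1 by -1.02 ± 0.11 (edgeR adjusted p = 0.00185). In each of the 3 the libraries of Olfr73 lay below those of Olfr160.

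Septin3 was lower by a smaller amount, -0.41 ± 0.09 (edgeR adjusted p = 0.0134). Afap1l2 was lower, with a ratio of Olfr160 to Olfr73 of 132 and a counting interval of 23.7 to 5220 (edgeR adjusted p = 0.00239). Unc93a was at least 5.46-fold higher in Olfr160, with 3 counts over the group in place of 0 in Olfr73 and 6, 5 and 6 counts in Olfr160. Cemip was lower by -3.08 ± 0.87 (edgeR adjusted p = 0.0388), a call lost under 13 of 21 alternatives, among them leaving out any library other than Olfr73 library 2 and the replicate number as a block (edgeR adjusted p = 0.0638). Macroh2a1 was the member that went the other way, higher in Olfr73 by 0.73 ± 0.10 (edgeR adjusted p = 0.00308), but by 0.05 with libraries scaled to the neuron markers (edgeR adjusted p = 0.877). Supt16, at 0.16 ± 0.10 (edgeR adjusted p = 0.265) and at -0.51 with that scaling, and Fndc1, at -0.36 ± 0.79 (edgeR adjusted p = 0.788), did not pass. Without Olfr73 library 3, where Fndc1 was highest, that gene differed by -2.23 (edgeR adjusted p = 0.045), and without library 1, where it was lowest, by 0.22.

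With Olfr160 library 3 alone in its group, an alternative chosen after seeing the data, since that library holds the largest share of the tagged receptor in the group, 3 of the 10 passed, Vstm2a, Afap1l2 and Eml1 (edgeR adjusted p = 0.00428, 0.011 and 0.0456), where 61 of 17679 genes passed in all. That fit takes its spread wholly from the Olfr73 and Olfr1507 libraries and assumes that the lone library varies like them. Fitted on the 6 libraries of the 2 groups alone, 5 passed, Unc93a was not tested, and Septin3 had edgeR adjusted p = 0.0515 and Cemip 0.185.

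**Figure D4:**
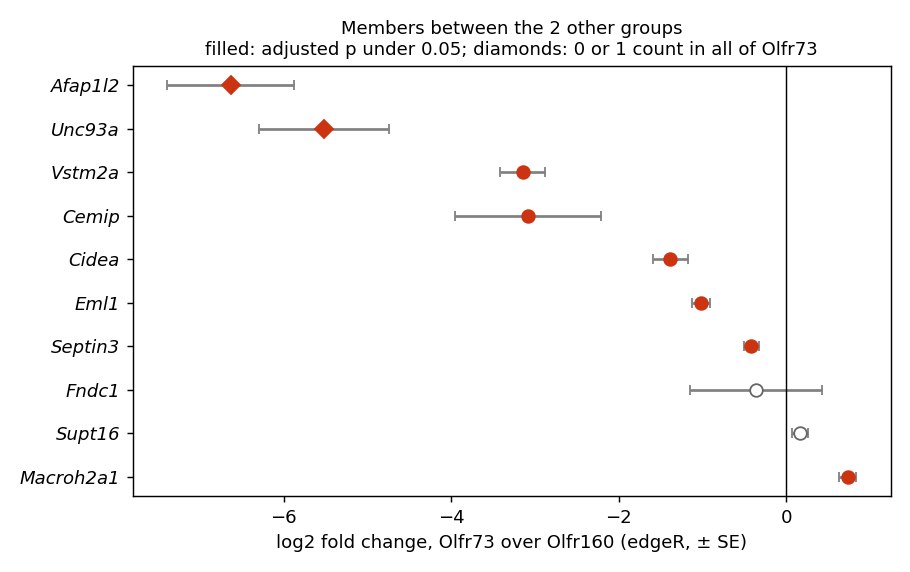
The log2 fold change of Olfr73 over Olfr160 from edgeR, with its SE as a bar, for the 10 members; filled symbols have an adjusted p under 0.05 and diamonds are genes with 0 or 1 count in all of Olfr73, whose fitted size depends on the prior count. In all, 7 members lie below 0 and filled, with Unc93a in the fit only through its Olfr1507 counts, Fndc1 and Supt16 are open, and Macroh2a1 is filled at 0.73.

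Over all lists, 92 of the 120 listed partners and relatives were tested. In Olfr1507 against Olfr73, 17 (18.5%) were higher and 18 (19.6%) lower, near the 14.5% and 19.9% of all tested genes, with a median log2 fold change of -0.15, the value for all genes being -0.15. Against Olfr160, 16 (17.4%) were higher and 30 (32.6%) lower, where 20.7% and 27.7% of all were. The median there was -0.40 against -0.14 for all genes. Both comparisons, which share the Olfr1507 libraries, gave 10 of the 92 partners higher and 13 lower, where 11.3% and 15.5% of all genes were. Unc93a2 is among the 10, though it shares sequence with Unc93a and passed the low-count filter only through its Olfr1507 libraries. With libraries scaled to the neuron markers these counts were 4 higher and 62 lower against Olfr73 and 1 higher and 78 lower against Olfr160, since that scaling moved the median of all genes to -1.10 and -1.76. Under it the members other than Eml1 stayed higher in Olfr1507 in both comparisons.

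The members lie on 9 chromosomes. Fndc1 and Unc93a are both on chromosome 17, 5.28 Mb apart, and Unc93a2 is the nearest tested gene to Fndc1 on one side, at 353.1 kb. Supt16 lies 291.4 kb from the Olfr1507 gene itself (chr14:52488791-52495749) on chromosome 14. Members and Olfr genes aside, the nearest tested gene on each side of each member was taken as its neighbour, at any distance. Of these 20 genes, 8 (40.0%) differed between Olfr1507 and Olfr73, 3 higher and 5 lower. Against Olfr160, 11 (55.0%) differed, 4 higher and 7 lower. Among all tested genes 34.4% and 48.4% differed, so the neighbours' shares were near the background.

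Of the neighbours, 3 were higher in both comparisons, among them B430212C06Rik and Unc93a2. The near copy Unc93a2 shares sequence with the member Unc93a and passed the low-count filter only through its Olfr1507 libraries. Its calls are therefore not free of the choice of members. B430212C06Rik, a gene of unknown role whose annotated span overlaps Cidea by 500 bases, held 5.64, 1.498 and 1.40 CPM in Olfr73, 13.8, 13.3 and 18.5 in Olfr1507 and 6.74, 5.01 and 5.20 in Olfr160. Its Olfr1507 libraries lay above the others, by 2.41 (edgeR adjusted p = 0.00719) and 1.43 (edgeR adjusted p = 0.0396), but by -0.23 over Olfr160 with libraries scaled to the neuron markers. The 4 neighbours lower in both were Cobl, Ablim1, 2700054A10Rik and Gm47071. Cobl lies 3792764 bases from Vstm2a, Ablim1 24505 from Afap1l2 and 2700054A10Rik 350743 from Unc93a, while Gm47071 overlaps Macroh2a1. The 2700054A10Rik gene held 41.0, 54.9 and 43.9 CPM in Olfr73 and 1.13, 3.10 and 0.838 in Olfr1507.

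Around the Olfr1507 gene, 14 tested genes other than Supt16 and Olfr genes lay within 1 Mb. Against Olfr73, 5 (35.7%) differed, 0 higher and 5 lower, and against Olfr160, 6 (42.9%) differed, 1 higher and 5 lower. Among all tested genes 34.4% and 48.4% differed, so these shares were near the background. In both comparisons 0 were higher, and Slc39a2, Ndrg2, Arhgef40 and Hnrnpc were lower in both. Hnrnpc, a splicing factor gene on the far side of Supt16 from the receptor, was lower by -0.33 (edgeR adjusted p = 0.0183) and -0.40 (edgeR adjusted p = 0.00476). Leaving out 1 Olfr1507 library lowered the count against Olfr73 from 5 to 2 or 3, without library 1 to 2, without library 2 to 3 and without library 3 to 2. The 6 other tested Olfr genes of the window were not higher: 4 (66.7%) were lower than in Olfr73 and 6 (100%) lower than in Olfr160. Among all tested genes 19.9% and 27.7% were lower. The share among Olfr genes elsewhere was not counted, and the tagged receptor made up most Olfr counts only in Olfr1507. These counts are therefore not a result about the window.

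**Figure D5:**
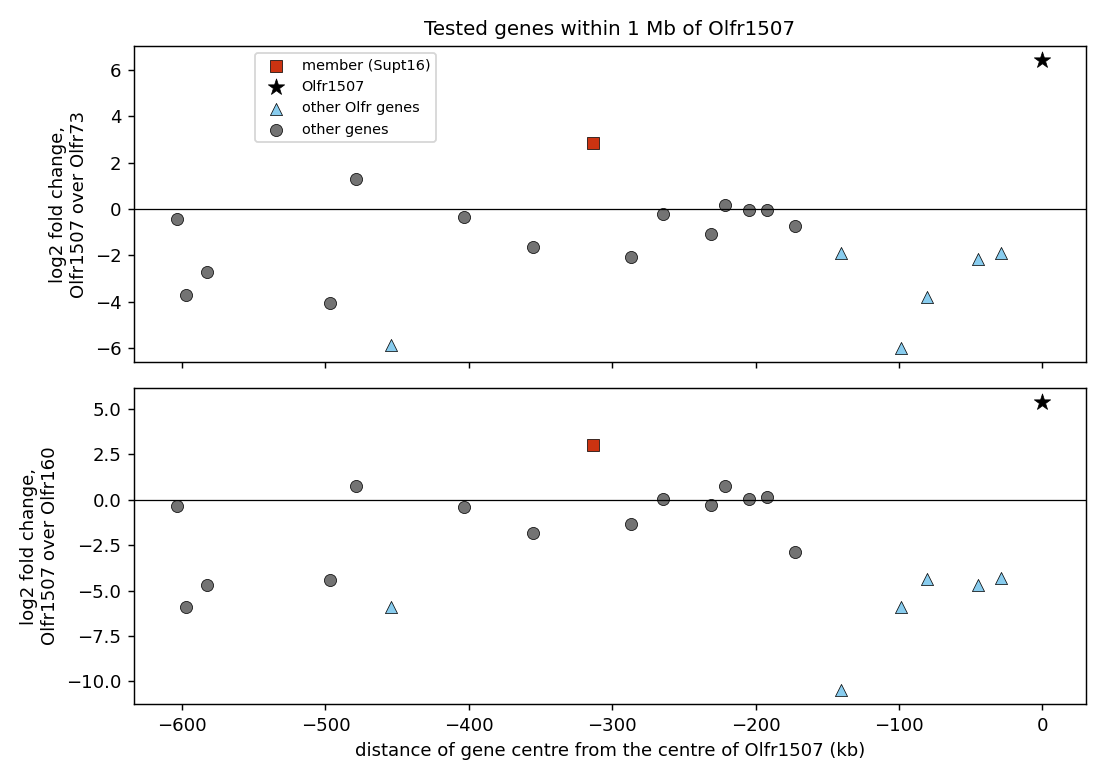
The log2 fold change of Olfr1507 over Olfr73 (upper panel) and over Olfr160 (lower panel) against the distance in kb between the centre of each tested gene and the centre of Olfr1507, within 1 Mb. Supt16, selected as high in Olfr1507, is the square at 2.84 and 3.00, above the other genes apart from the tagged receptor. The tested genes all lie on one side.

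The other genes whose levels over the 9 libraries were most like the mean profile of the members were Ky, Calb2, Psmd6, Slc9b2 and Mmp2, with Pearson's r of 0.995, 0.994, 0.993, 0.993 and 0.993. The r is a description over libraries that fall into 3 groups, and 228 of 8383 candidate genes reached 0.95. Calb2, the calcium-binding protein calretinin, stood at 5771 ± 717 CPM in Olfr1507, 189 ± 44.0 in Olfr73 and 313 ± 13.3 in Olfr160 (SD, n = 3). Mmp2, a matrix metalloproteinase, stood at 39.8 ± 4.62 CPM in Olfr1507, 4.16 ± 1.17 in Olfr73 and 6.01 ± 0.590 in Olfr160. Ky, a gene known from skeletal muscle, stood at 11.4 ± 0.680 CPM in Olfr1507 against 0.172 ± 0.221 and 0.488 ± 0.0871.

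Per length, the order of the members within Olfr1507 ran from Cidea through Septin3, at 159 ± 5.32 TPM, Eml1, Macroh2a1, Supt16, Vstm2a, Afap1l2, Fndc1 and Unc93a to Cemip, at 4.56 ± 0.743 TPM (SD, n = 3). The library ranges of 4 neighbouring pairs in that order overlapped, those of Septin3 and Eml1, Supt16 and Vstm2a, Afap1l2 and Fndc1, and Unc93a and Cemip.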

How the data were processed

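Polyadenylated RNA of 9 libraries, 3 per group, was analysed. Expected counts per gene were made by the authors with RSEM 1.3.1 after STAR 2.6.1 alignment to mm10, and TPM came from the same tables; the tools and build are per the submitters' processing notes. The deposited expected counts, of which 4.06% to 5.54% per library were not whole, were rounded. Strand use in counting and the annotation are not given in the sources used here. Libraries were grouped by the receptor named in their labels, with older receptor names matched through RefSeq synonyms.

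All 3 groups were fitted together in edgeR 4.0.16 (R 4.3.3; filterByExpr, TMM, robust quasi-likelihood test, Benjamini-Hochberg adjusted p of 0.05), leaving 16399 of 55291 genes; DESeq2 1.42.0 and limma 3.58.1 on log2(TPM + 1) were alternatives, with library scaling, filters, left-out libraries and a replicate block. Totals of 17212807 to 36230606 counts put 3 counts at 0.099 to 0.167 CPM. Counting intervals cover counting error only.

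Named genes outside the members were partners and relatives in lists by role, up to 3 per list with the lowest adjusted p over both Olfr1507 comparisons, with Ssrp1 and the closest paralogue of each member added, genes next to the members or within 1 Mb of Olfr1507 that passed the same way in both comparisons, and the 5 genes whose log2 CPM had the highest Pearson r with the members' mean z-score. The search for those 5 left out members, Olfr genes, Gm and Rik symbols and genes with a mean under 5 CPM in Olfr1507. Other listed genes named with values, such as Septin7, Cideb, Has1 and Rpgrip1, were chosen after their values were seen. The values of 1 neighbouring gene are not reported here. The members and lists were chosen with earlier results of these data known. Positions are GENCODE M21 on mm10, and start regions RefSeq on GRCm38.p6.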

Additional observations from a re-analysis of the deposited data

How the results depend on the processing

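Of the 10 members, 8 passed between Olfr73 and Olfr160; 5 did so with only the 6 libraries compared, 3 with Olfr160 library 3 alone (chosen after seeing the data, with the spread taken wholly from the other groups), 7 to 8 with 1 library left out and 7 with the replicate block. By limma 6 members passed on log2(TPM + 1) and 7 on log2(TPM + 0.1), while 6 passed at adjusted p of 0.01 and 7 scaled to the neuron markers. Over the 3 groups, same-numbered libraries correlated at -0.285 to 0.177 in their deviations, and the numbers were not taken to pair them. Between Olfr73 and Olfr160 alone the values were 0.1, 0.103 and 0.177, each the highest for its Olfr73 library in Olfr160, a hint from the data and not the design; the block lost the call of Cemip (-3.18, adjusted p = 0.0638). Partners higher and lower than in Olfr73 numbered 17 and 18, with library size alone 7 and 32, scaled to the neuron markers 4 and 62, at p of 0.01 9 and 9, with the block 13 and 19, and with 1 library left out 10 to 17 and 13 to 20 (10 higher without Olfr1507 library 2, 11 without library 1); 9 were higher by limma on log2(TPM + 1) and 9 on log2(TPM + 0.1). Against Olfr160 they numbered 16 and 30, with library size alone 8 and 48, scaled to the neuron markers 1 and 78, with Olfr160 library 3 alone 10 and 14, with the block 14 and 30, and with 1 left out 13 to 17 and 25 to 36.

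Neighbours differing from Olfr73 numbered 8, at p of 0.01 5, with 1 left out 6 to 9 and with the block 7; from Olfr160 11, at 5 CPM 5, with Olfr160 library 3 alone 4, at p of 0.01 6, with 1 left out 6 to 11 (6 without Olfr1507 library 2, 7 without library 1 and without Olfr160 library 1 or 2) and with the block 9. Genes within 1 Mb differing from Olfr73 numbered 5, with library size alone 8, scaled to the neuron markers 12, with no filter 3, at 5 CPM 3, with Olfr160 library 3 alone 3, at p of 0.01 2, with 1 left out 2 to 5 and with the block 4; from Olfr160 6, with library size alone 10, neuron markers 12, Olfr160 library 3 alone 3, 1 left out 6 to 7 and the block 6.

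Among differences that had passed, and the members' Olfr1507 differences, signs of the genes named turned under scaling to the neuron markers and no other setting: over Olfr73 Unc93b1 (-0.086), Fndc3a (-0.37), Eml2 (-0.042), Chaf1a (-0.11) and Nap1l1 (-0.43); over Olfr160 Eml1 (-0.17), Mfsd11 (-1.13), Eml2 (-0.13), Nap1l1 (-0.83), Afap1 (-0.96) and B430212C06Rik (-0.23); and in Olfr73 over Olfr160 Eml2 (-0.088). Among differences that had not passed, that of Supt16 between Olfr73 and Olfr160 turned to -0.51 under this scaling and that of Fndc1 to 0.22 without Olfr73 library 1, and others turned too. Of all genes called in Olfr1507 against Olfr73, against Olfr160 and in Olfr73 against Olfr160, 42.2%, 42.8% and 41.6% were higher; these were 18.2%, 17.7% and 30.6% with library size alone, 3.25%, 0.771% and 2.15% scaled to the neuron markers, and 31.8%, 28.8% and 26.3% on log2(TPM + 1). The cause of these shifts was not tested. Depth limits Unc93a, Cemip, Afap1l2 and Fndc1 outside Olfr1507.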
